A study of Drosophila melanogaster x Drosophila sechellia and Drosophila melanogaster and Drosophila sechellia with 12 samples.

Results

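Isolated RNA editing sites were defined by position alone. Each of the 1058 sites listed in the deposited tables was joined to the next site on the same chromosome arm where the distance was at most 1000 bases, which gave 309 loci, and the sites in loci of 1 or 2 sites were taken as isolated. They numbered 247 (23.3% of all sites) and filled 176 loci (57.0% of all loci), of which 105 held a single site and 71 held a pair. The remaining 133 loci held 3 to 24 sites each. Editing had been measured in heads of adult females, 0 to 2 days old, by mmPCR-seq, a microfluidic multiplex PCR in which chosen loci are amplified from cDNA and sequenced. The 12 libraries formed 5 groups: Drosophila melanogaster (n = 2), Drosophila sechellia (n = 2), mixed parents, in which both species were combined (n = 2), F1 hybrids of these species (n = 3), and Adar F1, hybrids from D. melanogaster with a mutant Adar gene (n = 3). The sources used here do not give the fly stocks, the kind of Adar mutation or the number of animals per library. Nothing in the labels says that replicates were separate cultures or animals. The p-values here weigh a difference against the counting error of reads and a spread among these libraries that is partly shared across sites. That spread may be technical, and the p-values do not measure variation among animals.

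Adar is the fly enzyme that deaminates adenosine in double-stranded RNA to inosine, and inosine is read as guanosine by the ribosome and in sequencing. Its substrates are hairpins that form when an exon pairs with a nearby complementary stretch, often in an intron. Long, regular duplexes can be edited at many adenosines, whereas interrupted hairpins are often edited at very few, and in fly heads many recoding sites lie in transcripts of ion channels and synaptic proteins. In a hybrid the alleles of both species share the same cells and the same enzymes, so that alleles can be compared there in a common setting. The editing level of a site is its G reads as a percentage of all its A and G reads. Sites are named by chromosome arm and dm3 position, since the tables pair them with no gene, and the surrounding bases were not used here.

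Isolated sites lay on every arm of the list. They made up 26.7% of the listed sites on 2L (43 of 161), 17.2% on 2R (44 of 256), 27.0% on 3L (40 of 148), 25% on 3R (65 of 260), 42.9% on chromosome 4 (6 of 14) and 22.4% on X (49 of 219). The median distance from an isolated locus to the nearest other listed site was 96847.5 bases. The nearest such neighbour was 1010 bases away, 11 loci had one within 2000 bases, and 87 loci had none within 100000 bases. Isolation therefore refers to the list of measured sites, and adenosines outside the list were not analysed here.

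The libraries held 251870 to 398284 reads, of which 18.2 to 19.5% fell on isolated sites. The median depth of an isolated site was 151 to 275 reads per library, against 236 to 341 for the other sites. At least 50 reads were present at 223 to 241 isolated sites in each library other than Adar F1, but at 179 to 183 in the Adar F1 libraries, and 38 isolated sites had no read in any Adar F1 library. The other sites lost coverage alike. In the Adar F1 libraries 72.9 to 74.5% of them had 50 reads, beside 72.5 to 74.1% of isolated sites. In the remaining libraries these shares were 92.1 to 96.9% and 90.3 to 97.6%. In the pure parents a few sites had over 5% of their reads assigned to the sequence of the other species, 9 of 240 covered isolated sites in D. melanogaster and 15 of 230 in D. sechellia. Intervals and limits from read counts cover counting error only, since PCR reads without molecular identifiers are not independent molecules.

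Most isolated sites were edited at low levels, and a minority were edited in the majority of transcripts. Among the 222 isolated sites with at least 50 reads in both D. melanogaster libraries the median level was 9.61%, with quartiles of 1.15% and 28.6%. Of these sites, 49 lay under 1%, 49 from 1 to 5%, 46 from 5 to 20%, 49 from 20 to 50%, 19 from 50 to 80%, 3 from 80 to 95% and 7 at 95% or above. Over all 981 sites covered in D. melanogaster the median was 5.85%, so that the median of the isolated sites stood above that of the whole list, with no test run between sets of sites. Isolated sites were more often at 20% or more, 35.1% against 29.5% of all sites, and under 1%, 22.1% against 13.5%. The top of the scale was not more filled. From 80 to 95% lay 3 of the 222 isolated sites and 18 of all 981, and at 95% or above 7 and 33. The share under 1% was 36.1% among single sites but 11.2% among sites in pairs. Single sites had a median of 12.8% (97 sites) and sites in pairs one of 8.36%, whereas sites in loci of exactly 3 had a median of 2.93% and those in loci of 8 or more one of 5.86%.

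The same order of the medians between isolated and all sites was found in each group. In D. sechellia the median of 216 covered isolated sites was 5.66% against 4.22% over all covered sites, and the isolated sites had library medians of 6.12% and 5.53%. In the mixed parents the isolated sites had a median of 8.68% (library medians 7.83% and 8.84%), against 6.23% over all. The F1 median was 9.59%, with library medians of 10.6%, 8.54% and 8.76%, against 6.26% over all sites. In Adar F1, where 176 isolated sites were covered, the median was 6.37%, with library medians of 7.99%, 5.85% and 6.70%, against 4.56% over all. The means over sites did not follow the order of the medians in every group. The isolated and all-site means were 15.5% and 15.6% in Adar F1, and 17.8% and 17.7% in the mixed parents. They were 19.8% and 18.2% in D. melanogaster, and 17.8% and 16.6% in D. sechellia. The isolated mean was also slightly the higher in F1. In every group but D. melanogaster, sites in loci of 8 or more had a higher mean than isolated sites. Because different sites were covered in different groups, levels were also compared over the 155 isolated sites with 50 reads in all 12 libraries. Their mean level was 20.5% and 20.3% in the D. melanogaster libraries, 17.3% and 18.8% in D. sechellia and 17.2% and 18.2% in the mixed parents. It was 19.0%, 17.4% and 17.3% in F1 and 16.4%, 14.7% and 14.9% in Adar F1. Both D. melanogaster libraries lay above all others, and the 3 Adar F1 libraries lay below all others.

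**Figure D1:**
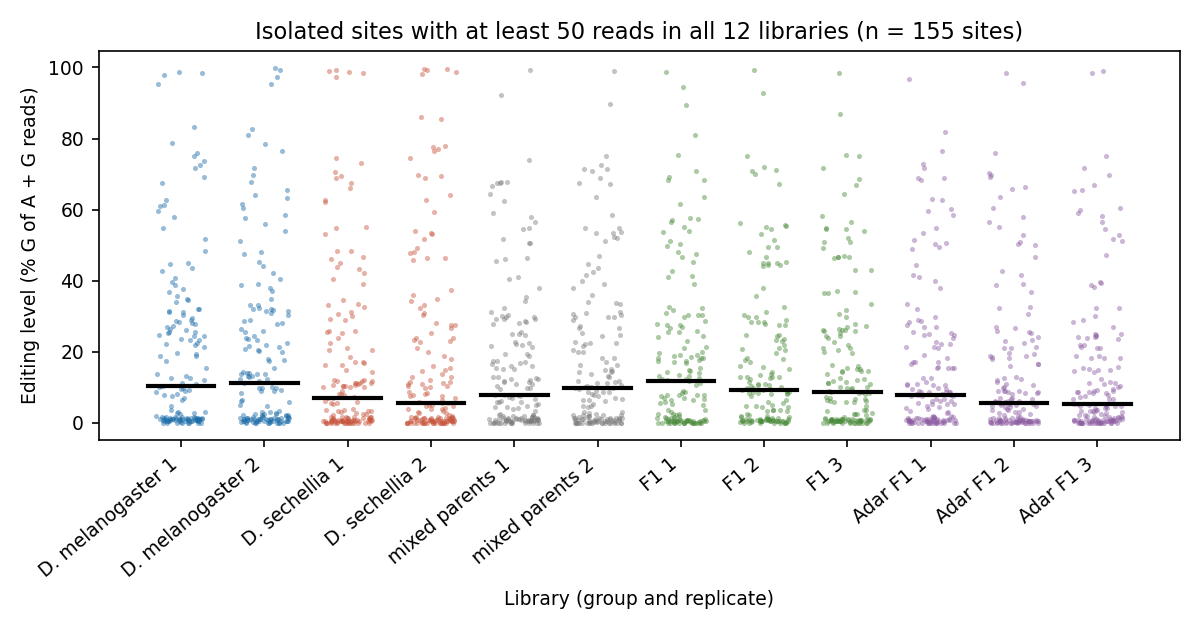
Editing level (% G of A and G reads) of the 155 isolated sites with at least 50 reads in all 12 libraries, one column per library; each point is a site and each black line the median over sites. Points crowd near 0 in every library, with a thin scatter above 50%, and the lines of the Adar F1 libraries lie below those of the D. melanogaster libraries.

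Among sites under 95% G in every parent library, the highest level across the 12 libraries was at 2L 14083517, whose neighbour lies at the adjacent base. The level at 2L 14083517 was 75% and 78.5% in D. melanogaster, 74.5% and 77.9% in D. sechellia, 74.0% and 75% in the mixed parents, 81.0%, 75% and 75.3% in F1, and 76.5%, 75.9% and 60.0% in Adar F1. Only Adar F1 replicate 3 stood apart, and neither the species difference of -0.55 percentage points (adjusted p = 0.872) nor the Adar F1 difference of -6.25 points (adjusted p = 0.314) passed the threshold. The single sites X 11848310 (median 70.3%, range 58.9 to 76.6%) and 2L 2785542 (median 69.7%, range 62.8 to 73.7%) had similarly high levels across the groups. At 2L 2785542, 20.6% of the D. melanogaster reads had been assigned to the D. sechellia sequence.

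The highly edited single site X 6009458 behaved differently between the species. It stood at 83.2% and 81.0% in D. melanogaster and at 67.5% and 69.7% in D. sechellia, while the mixed parents, F1 and Adar F1 libraries lay between 65.5% and 71.6%. The species did not overlap, with a D. sechellia minus D. melanogaster difference of -13.5 points (adjusted p = 5.67e-05). At 2R 20272335 and 3R 5492569, in contrast, single groups spread widely: D. sechellia gave 62.6% and 85.6% at the first, and 48.2% and 86.1% at the second. At 3R 5492569 the F1 libraries also ranged from 49.5% to 89.4%, and the species comparison there did not pass (adjusted p = 0.490). At the lower end, 2L 16742611, 2L 16742648, 3L 189694 and 3L 5757625 had no G read in most libraries, although 3L 189694 read 10.2% in D. sechellia replicate 1 and 0 in replicate 2.

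The sites of a pair often had unlike levels. The sites of a pair lay 1 to 395 bases apart with a median of 16 bases; 12 pairs were at adjacent bases, 29 lay within 10 bases and 18 were more than 100 bases apart. In the 61 pairs covered at both sites in D. melanogaster the median level was 24.6% at the higher and 1.56% at the lower site. The sites differed by a median of 18.5 percentage points, and 28 pairs differed by more than 20 points. In 25 pairs a site under 5% lay beside a site of 20% or more. Across pairs, which share libraries, the levels of the sites at the lower and the higher coordinate had r = 0.0221 and rho = 0.0124, given as a description.

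**Figure D2:**
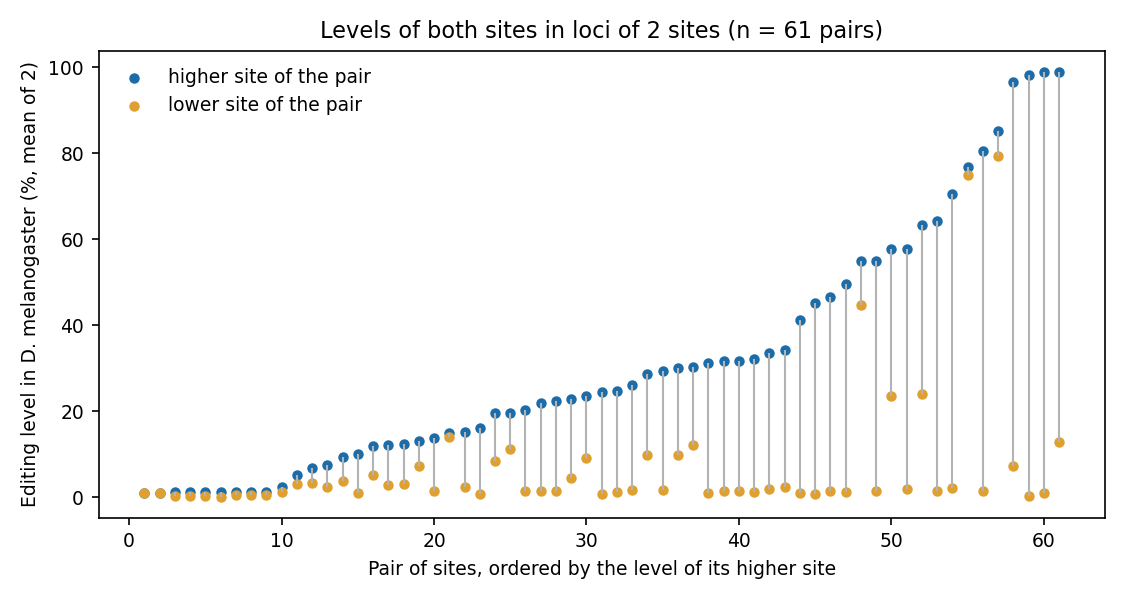
Editing level in D. melanogaster (%, mean of 2 libraries) of both sites in each of the 61 covered loci of 2 sites, ordered by the level of the higher site; blue points are the higher site, orange points the lower site, and a grey line joins a pair. The lower site stays near 0 in most pairs, with a median of 1.56%, while the higher site ranges up to more than 95%.

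The largest differences within pairs involved sites read almost wholly as G. Across 27 bases of 2L, site 7986277 read 0% and 0.575% in D. melanogaster and site 7986304 read 98.0% and 98.3%. Across 44 bases of 2R, site 6392759 read 1.25% and 0.96% while site 6392803 read 98.4% and 99.3%. Reads alone cannot tell a genomic G from full editing at such a site, and the genomes of the stocks were not used here. Among the pairs in which 1 site was named for a change described later, the partner was often barely edited: X 7632619 read 1.78% in D. melanogaster beside X 7632553 at 26.2%, 2L 7230013 read 2.04% beside 2L 7230012 at 57.8%, and 3R 23762175 read 1.89% beside 3R 23762174 at 33.5%.

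The parent species were compared at each site to find isolated sites whose editing has diverged. Of the 247 isolated sites, 197 had at least 50 reads in all 4 parent libraries and 152 of them also had a mean level of at least 1%. In the per-site quasi-binomial test 63 of the 152 (41.4%) differed at an adjusted p under 0.05, 21 higher and 42 lower in D. sechellia, against a background of 41.9% of 771 sites called over the whole list (16.5% higher, 25.4% lower). The share of isolated sites that differed was thus near that of all sites. The median absolute difference was 4.31 points over the tested isolated sites and 3.39 points over all tested sites, and 45 isolated sites (29.6%) differed by at least 10 points against 21.9% of all sites. Single sites were called at 29 of 56 and sites in pairs at 34 of 96. The called isolated sites fell in 56 of the 112 tested loci, and at all 63 the libraries of the species did not overlap. The same held at all 323 sites called over the whole list. Called or not, the libraries did not overlap at 69.8% of all tested sites.

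The named sites edited more in D. sechellia were mostly sites of intermediate level in D. melanogaster. At 3R 11225168 the level was 44.9% and 48.0% in D. melanogaster and 66.1% and 74.4% in D. sechellia, a difference of 23.8 points (SE 4.46, n = 2 per species; adjusted p = 3.26e-05). At 3R 15589356 it was 34.5% and 32.98% against 53.0% and 53.3%, a difference of 19.4 points (SE 0.776; adjusted p = 1.28e-05), with 7.33% of the D. melanogaster reads assigned to D. sechellia. At X 14890707 it was 50.4% and 49.0% against 70.1% and 65.4%, 18.1 points higher (SE 2.47; adjusted p = 2.68e-05). Both D. sechellia libraries lay above both D. melanogaster libraries at each of these sites, which the rule for naming sites required. The others named in this direction were X 11843915 (17.4 points), 3R 25567140 (15.1 points, from 7.48% to 22.6%), 3L 20516600 (13.6 points) and 3R 24424516 (11.3 points). The call at 3R 24424516 (adjusted p = 0.0389) was lost without D. melanogaster replicate 1, D. sechellia replicate 1 or D. sechellia replicate 2, with adjusted p-values of 0.261, 0.201 and 0.0753.

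Sites edited less in D. sechellia included several at which editing was close to nil in that species. The largest difference under 95% G was at the single site 3L 21327037, with 72.6% and 65.4% in D. melanogaster and 6.92% and 6.45% in D. sechellia (-62.3 points, SE 3.62; adjusted p = 1.92e-14). At X 9172609 the level was 28.8% and 31.5% in D. melanogaster, and all D. sechellia reads were A, which puts an upper limit of 1.04% on the level, taking 3 counts of the total as here throughout (-30.1 points, SE 1.34; adjusted p = 1.97e-09). At 2R 3988206 the D. melanogaster level was 25.4% and 19.8% with again no G read in D. sechellia, a limit of 0.867% (-22.6 points, SE 2.80; adjusted p = 1.06e-07). At these 3 sites all D. melanogaster libraries lay far above both D. sechellia libraries, where the rule for naming required only no overlap. A residual level remained at 2L 11796346, where 28.6% and 32.1% stood against 6.07% and 5.75% (-24.4 points), at 3R 23762174 (-23.7 points, D. sechellia 7.69% and 12%) and at X 7632553 (-22.5 points, D. sechellia 3.60% and 3.87%). At 2L 1609982 the levels were 24.3% and 21.5% against 0.476% and 0.543% (-22.4 points, adjusted p = 1.95e-08). Of the 63 isolated sites that differed, 16 had a level under 1% in one species. Of these, 11 stayed under 95% in both parents, 9 of them lower and 2 higher in D. sechellia. The matching count over the whole list is not given here. Calls over the whole list also lay more often lower (25.4% of tested sites) than higher (16.5%) in D. sechellia.

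Sites read at 95% G or more in a parent library made up 11 isolated sites, and 49 over the whole list. Only parent libraries with at least 50 reads of their own species were judged, so a site not covered in a parent counts as under 95% there. Of the 11, 1 was at that level in both species (2R 6392803), 4 were there in D. melanogaster with at most 5% in D. sechellia, and 4 the other way round. At 3L 13854637 no D. melanogaster read was G, which allows up to 0.713%, while D. sechellia read 98.4% and 98.7%. At 2L 7986304 D. melanogaster read 98.0% and 98.3% and D. sechellia had no G read, which allows up to 1.5%, with 9.91% of the D. sechellia reads there assigned to D. melanogaster. Whether such a switch was in editing or in the genomic base was not tested. Without these sites 54 of 142 isolated sites differed, 17 of them higher in D. sechellia. The share over the whole list without its sites at 95% G is not given here.

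**Figure D3:**
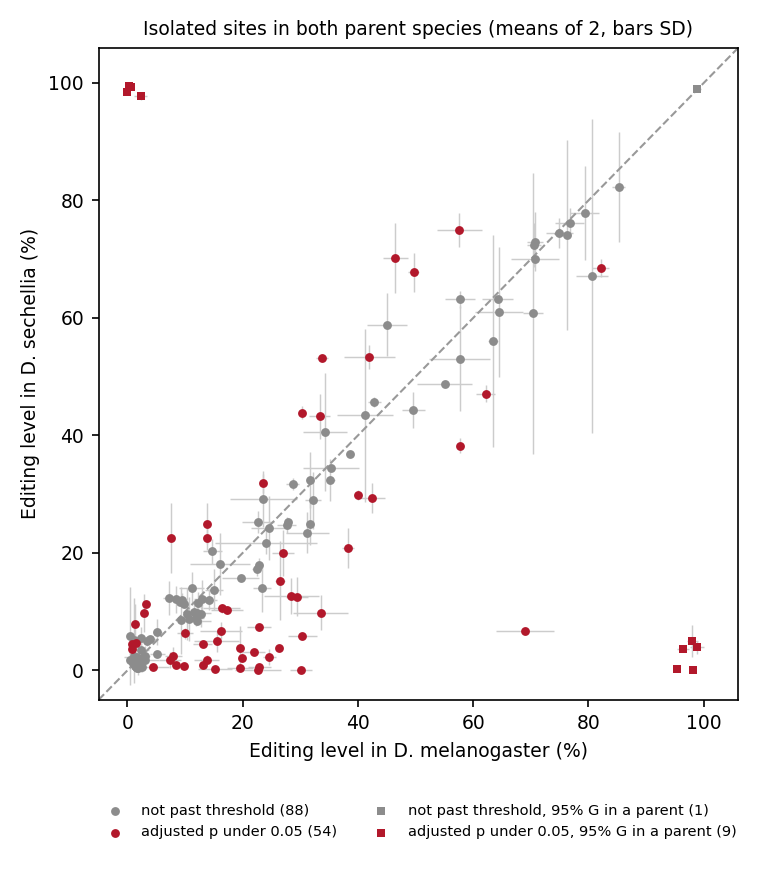
Mean editing level (%) of each of the 152 tested isolated sites in D. melanogaster (horizontal axis) and D. sechellia (vertical axis), with SD bars over 2 libraries; red marks sites with an adjusted p under 0.05, squares mark sites that reached 95% G in a parent library, and the dashed line marks equal levels. A cloud of red points lies near the bottom of the plot, below 10% in D. sechellia at 10 to 35% in D. melanogaster, and the 9 red squares lie in the upper left and lower right corners.

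Both species were at 20% or more at 50 tested isolated sites, of which 14 (28%) differed, against 61 of 188 (32.4%) over the whole list. The 36 that did not pass had a median absolute difference of 2.85 points and a largest of 13.8 points, so with 2 libraries per species they are not shown to be edited alike. Within pairs, both sites were tested between species in 40 cases: both differed in 7, only 1 in 14 and neither in 19, and the differences had the same sign in 25. At X 9172609 and its adjacent neighbour X 9172610 the differences were -30.1 and -9.13 points, and at the adjacent sites X 14723853 and X 14723854 they were -7.45 and -19.1 points. At the adjacent sites X 11843915 and X 11843916 they were 17.4 and 8.27 points, and at 3R 11225168 and 3R 11225251 they were 23.8 and 6.54 points. Of the 7 pairs called at both sites, 6 had both differences in one direction. The exception, named after its values were seen, was 3L 7647765 and 3L 7647772, 7 bases apart, where the D. sechellia level was higher by 2.90 points at the first (adjusted p = 0.00755) and the difference was -9.44 points at the second (adjusted p = 0.00258). The levels there were 0.667% and 0.806% in D. melanogaster against 3.37% and 3.89% in D. sechellia at the first, and 18.8% and 13.7% against 5.78% and 7.78% at the second.

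Alleles were then compared within the F1 libraries, where both are exposed to the same cells. Both alleles had 50 reads in all 3 F1 libraries and a mean of at least 1% at 91 isolated sites, and 27 of them (29.7%) differed by the quasi-binomial test, with the D. sechellia allele the higher at 9 and the lower at 18. The background was 31.5% of 504 sites (13.3% higher, 18.3% lower), again near the share of the isolated sites. Called or not, the median absolute gap was 3.67 points over the tested isolated sites and 2.41 points over all tested sites. Among the called isolated sites it was 15.6 points, against 9.84 points over all called sites. These last medians hold only gaps that passed the threshold, and isolated sites had fewer reads, so they do not compare the sets. In the mixed parents, where each allele comes from its own flies, 29 of 101 isolated sites differed, 13 higher and 16 lower, against a background of 28.0%. That count was 17 without mixed parents replicate 2.

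The D. sechellia allele was called higher at 9 isolated sites. At 5 of them the site was under 95% G in both parents and the libraries of the alleles did not overlap. Over the whole list, 29.0% of tested sites were called in either direction without overlap. Called or not, the alleles did not overlap at 39.5% of all tested sites. At X 641623 the D. melanogaster allele stood at 28.6%, 20.4% and 24.2% and the D. sechellia allele at 49.6%, 40.8% and 39.7%, a gap of 19.0 ± 3.02 points (SD, n = 3; adjusted p = 3.05e-06). The separate parents did not differ there beyond their spread, with 44.7% and 37.8% in D. melanogaster and 33% and 53.9% in D. sechellia. At 2R 3701368 the gap was 15.3 ± 5.13 points, from 32.6%, 29.0% and 29.4% to 49.0%, 38.8% and 49.2% (adjusted p = 2.00e-05). At 3R 24424516 the gap of 12.9 ± 3.84 points (adjusted p = 0.00892) stood beside 11.3 points between the species and 11.1 in the mixed parents, the last not past the threshold (adjusted p = 0.113). At 3L 16133495 it was 7.28 ± 2.01 points (adjusted p = 0.00736), beside 8.67 and 9.42 points. At 4 1268844 the D. melanogaster allele read 0.633%, 0 and 0 and the D. sechellia allele 2.61%, 5.38% and 3.26% (3.54 ± 1.72 points, adjusted p = 0.00297). These last 3 calls each depended on single libraries: 3R 24424516 was lost without F1 replicate 2 or 3 (adjusted p = 0.0717 and 0.0851), 3L 16133495 without replicate 1 or 3 (0.0895 and 0.0592) and 4 1268844 without replicate 2 (0.0777).

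A lower D. sechellia allele was the more common case. At 3L 21327037 the D. melanogaster allele read 70.3%, 64.6% and 70.4% and the D. sechellia allele 6.85%, 5.68% and 7.53% (-61.7 ± 2.43 points, adjusted p = 1.34e-47), next to -62.3 points between the species. At 2R 11652804 the alleles read 29.1%, 25.9% and 20.3% against 2.21%, 6.43% and 7.35% (-19.7 ± 6.96 points, adjusted p = 4.41e-13), next to -18.8 points. At the single site 4 909692 they read 52.4%, 48.7% and 49.3% against 31.8%, 30.2% and 25.8% (-20.9 ± 2.53 points, adjusted p = 7.93e-08), next to -13.1 points. All 3 libraries placed the D. melanogaster allele above the highest D. sechellia value at each of these sites, which the rule for naming required. The same order held at 2L 11796346 (-19.2 ± 5.0 points), 2L 1609982 (-18.5 ± 4.36 points) and X 14723854 (-15.6 ± 5.60 points). At 2R 3988206, where no D. sechellia parent read was G, the D. sechellia allele in F1 read 1.54%, 0 and 2.56% against 30.3%, 14.0% and 15.4% on the D. melanogaster allele. The named sites at 95% G in a parent had F1 gaps of 98.6 points at 3R 5296946, 85.9 at 2L 17371335, 85.2 at X 4253674, -95.5 at 2R 6708460 and -94.7 at 2R 9436570.

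**Figure D4:**
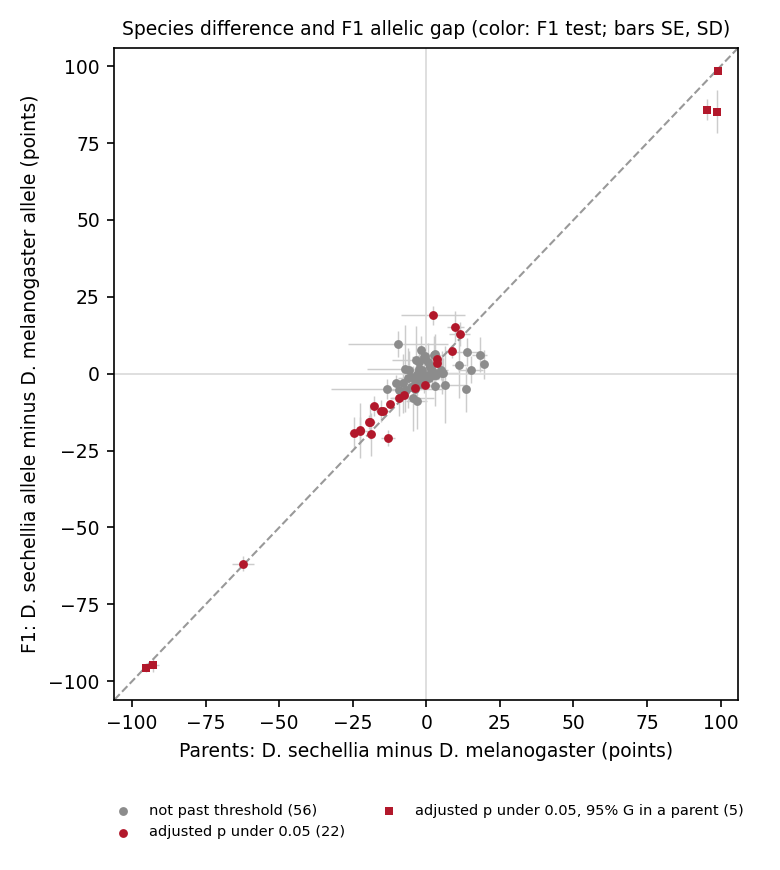
Difference between the separate parents (horizontal axis, points, SE bars) and F1 allelic gap (vertical axis, points, SD bars over 3 libraries), both D. sechellia minus D. melanogaster, at the 83 isolated sites tested in both; red marks an adjusted p under 0.05 in F1, squares mark sites that reached 95% G in a parent library, and the dashed line marks equality. All 24 sites called in both comparisons lie in the lower left or upper right part, near the dashed line.

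The F1 gap was set beside the species difference at the 83 isolated sites tested in both, which come from separate libraries. Among the 35 that differed between species, the F1 gap pointed the same way at 32 (91.4%) and was itself called in that direction at 24 (68.6%), while 0 were called in the other direction. Over all 483 sites tested in both, 181 of 200 (90.5%) pointed the same way and 122 (61%) were called. The 24 shared sites made up 88.9% of the 27 isolated sites called in F1. Across isolated sites, which share libraries and neighbours, r was 0.971 and rho 0.739, and without sites at 95% G they were 0.840 and 0.686 over 78 sites. The 3 sites called in F1 and not between the species were X 641623, 2L 2882059 (4.85 points, adjusted p = 0.0329) and 2L 7230013 (-3.67 points, adjusted p = 0.0198), and at none of them did the change of gap pass (adjusted p = 0.339, 0.752 and 0.340).

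Whether the gap itself differed between F1 and the separate parents was tested at 86 isolated sites. It did at 4 of them, against a background of 6.22% of 498 sites, and each of the 4 moved downward. At 3L 20516600 the parental difference of 13.6 points was not seen in F1, where the D. melanogaster allele read 38.7%, 28.1% and 35.3% and the D. sechellia allele 35.6%, 29.3% and 22.2% (change -18.6 points, adjusted p = 0.0211). The alleles overlapped in F1, whereas in the mixed parents they read 23.7% and 31.8% against 38.2% and 47.8%. At 3R 15589356 the F1 alleles read 38.4%, 44.0% and 43.4% against 46.6%, 45.6% and 42.6%, and the gap changed by -16.4 points (adjusted p = 0.0267). The mixed parents gave a gap of 10.1 points there (adjusted p = 0.129). At X 4253674 and 2L 17371335, at 95% G in D. sechellia, the changes were -13.5 points (adjusted p = 9.63e-06) and -9.64 points (adjusted p = 0.0118). At X 4253674 the D. melanogaster allele read 5.13%, 11.4% and 7.69% in F1 and 9.84% and 11.4% in the mixed parents, against 0.775% and 0.402% in the pure parent.

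These calls were made with the separate parents. With the mixed parents as the reference the quasi-binomial test called 0 of 84 isolated sites and 0 of 484 sites in all (an unadjusted p under 0.05 was reached at 7 and 49), and the change at X 4253674 turned to 2.99 points. The change was then -20.2 points at 3L 20516600 (adjusted p = 0.179) and -7.0 points at 3R 15589356 (adjusted p = 0.862), while 2L 17371335 lacked the reads for this test. Without D. melanogaster replicate 2 the count was 1. The call at 3L 20516600 was lost without D. melanogaster replicate 1 or 2 or F1 replicate 3 (adjusted p = 0.0507, 0.0625 and 0.242), with changes of -18.8, -18.3 and -14.5 points. The call at 3R 15589356 was lost without either D. melanogaster replicate or without F1 replicate 2 or 3 (0.056, 0.0925, 0.152 and 0.154), with changes of -17.1, -15.6, -15.7 and -14.5 points. That at 2L 17371335 was lost without D. melanogaster replicate 2 or F1 replicate 1 (0.0547 and 0.0925), with changes of -8.82 and -7.66 points.

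Adar F1 was compared with F1 to ask how isolated sites respond when the D. melanogaster copy of the enzyme gene is mutant. Of the isolated sites, 174 had 50 reads in all 6 libraries and 123 were tested, while 63 sites covered in F1 were not covered in every Adar F1 library. By the quasi-binomial test 40 of 123 (32.5%) changed, 32 lower and 8 higher in Adar F1, against a background of 34.6% of 619 sites (27.0% lower, 7.59% higher). Whether or not they were called, 79 isolated sites (64.2%) were lower in Adar F1, close to 67.2% over all sites. The libraries of F1 and Adar F1 did not overlap at 39 of the 40 called isolated sites. Over all tested sites, called or not, they did not overlap at 44.9%. As a percentage of F1, the median level in Adar F1 was 88.2% over isolated sites and 85.2% over all sites. The Adar genotype cannot be told apart here from other ways in which the Adar F1 libraries differ, since the stock that carried the mutation is not named. All 3 Adar F1 libraries lacked reads at the same 38 isolated sites, which are not among the 123 tested.

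The change is also given by the level of the site, averaged over F1 and Adar F1, so that a fall itself moves a site to a lower range; X 19228498, over 50% in every F1 library, counts in the range from 20 to 50% for that reason. Isolated sites averaging 5 to 20% were at a median of 71.7% of the F1 level (51 sites, 13 fell and 2 rose), and all sites of that range at 77.1% (190 sites, 60 fell and 14 rose). From 20 to 50% the isolated sites were at 85.9% (39 sites, 14 fell and 3 rose) and all sites at 88.6% (126 sites, 42 fell and 16 rose). From 50 to 80% the isolated sites were at 102.9% (14 sites, 0 fell and 2 rose) and all sites at 94.8% (55 sites, 16 fell and 6 rose). Below 5% the isolated sites were at 121% (18 sites, 4 fell and 1 rose) and all sites at 79.3% (226 sites, 43 fell and 7 rose). The order of the ranges was not monotonic among isolated sites or among all sites. The ranges below 5% and above 50% each held fewer than 20 isolated sites, and no test between level ranges or sets of sites was run.

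The largest falls at sites that stayed under 95% G in the parents brought strongly edited sites close to 0 or to a small remainder. At X 19228498, edited at 64.5% in D. melanogaster and 61.02% in D. sechellia, the level was 57.5%, 55.2% and 50.9% in F1 and 11.01%, 8.91% and 8.70% in Adar F1 (-45.0 points, SE 2.06, adjusted p = 2.34e-08). At 2R 3467301 it was 56.9%, 53.2% and 26.0% in F1 and 1.58%, 0 and 0.585% in Adar F1 (-44.6 points, SE 9.77, adjusted p = 1.86e-05). The F1 libraries lay above all Adar F1 libraries at both sites, which the rule for naming required. F1 replicate 3 was well below its companions at the second. On D. melanogaster reads alone the changes were -43.9 points (adjusted p = 1.24e-05) and -46.3 points (adjusted p = 0.000148).

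Smaller falls were seen on both alleles where both were covered. At 4 909692 the level was 41.4%, 37.8% and 36.6% in F1 and 28.3%, 24.2% and 23.7% in Adar F1 (-13.1 points, SE 2.05, adjusted p = 4.24e-05), with -14.3 points on the D. melanogaster allele (adjusted p = 0.00315) and -11.6 on the D. sechellia allele (adjusted p = 4.69e-05). At 2R 20399841 it was 17.1%, 17.1% and 15.1% against 5.53%, 5.26% and 5.37% (-11.03 points, SE 0.664, adjusted p = 7.42e-07), with -14.4 and -6.30 points on the alleles (adjusted p = 9.67e-06 and 0.0421). At 2R 11652804 it was 18.3%, 17.97% and 15.1% against 8.01%, 5.87% and 4.94% (-10.8 points, SE 1.37, adjusted p = 1.01e-05), with -14.0 and -4.43 points (adjusted p = 0.00204 and 0.00395). At none of these 3 sites did an F1 library overlap an Adar F1 library, which the rule for naming required. The falls at 2L 6452387 (-12.3 points, adjusted p = 0.000645) and X 19467749 (-13.6 points, adjusted p = 0.00800) completed the named falls under 95% G.

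**Figure D5:**
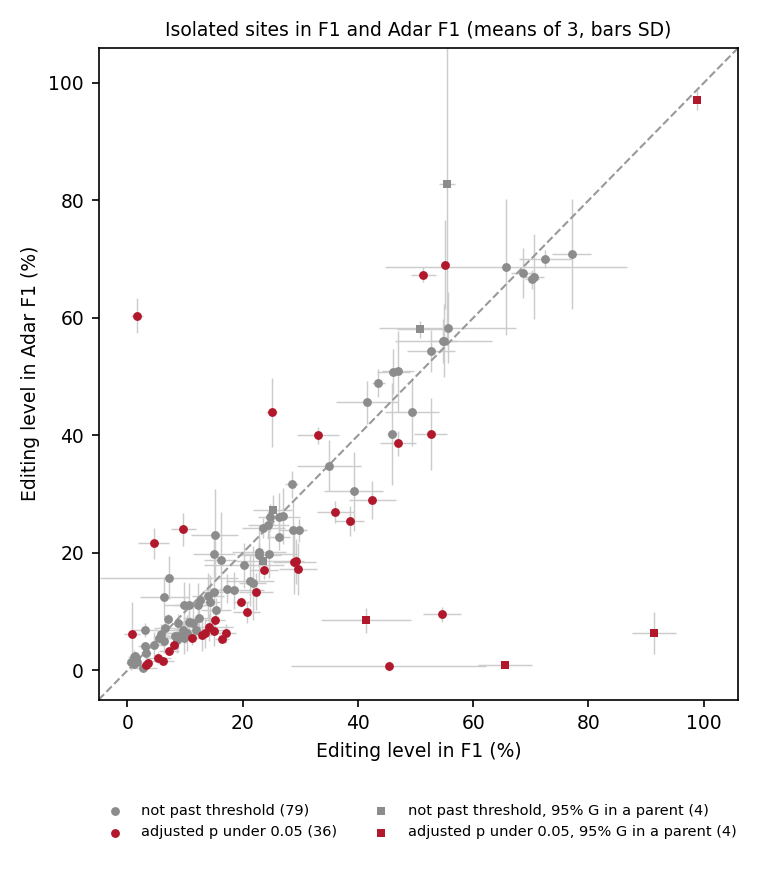
Mean editing level (%) of each of the 123 tested isolated sites in F1 (horizontal axis) and Adar F1 (vertical axis), with SD bars over 3 libraries; red marks sites with an adjusted p under 0.05, squares mark sites that reached 95% G in a parent library, and the dashed line marks equal levels. Most red points lie under the line at F1 levels of 5 to 50%, and the red point at the upper left is 2L 20825935, at 60.4% in Adar F1.

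Rises were fewer, and part of them coincided with a shift in which allele was read. At 2L 20825935 the level went from 0.625%, 2.76% and 1.71% in F1 to 63.3%, 60.4% and 57.4% in Adar F1 (58.7 points, SE 1.81, adjusted p = 4.16e-14), while the D. melanogaster share of its reads went from 98.2% to 38.5%. On the D. melanogaster allele alone it went from 0, 2.78% and 0 to 2.37%, 4.02% and 3.79% (adjusted p = 0.0979), and the D. sechellia allele, with only 1, 1 and 7 reads in F1, read 96.8%, 95.5% and 95.9% in Adar F1. The rise in the total was thus read on D. sechellia reads that were nearly missing in F1. At 2L 8177947 the level rose by 17.1 points (from 7.60%, 3.65% and 2.36% to 24.5%, 19.3% and 21.1%, adjusted p = 2.15e-05) with a D. melanogaster share that went from 96.1% to 40.2%. At X 9468688 the rise was 14.0 points (adjusted p = 0.0277), with a share that went from 83.4% to 50%.

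Other rises came with allele shares that moved less. At 2L 7230012 the level was 53.7%, 49.5% and 50.8% in F1 and 68.8%, 66.5% and 66.9% in Adar F1 (16.03 points, SE 1.42, adjusted p = 5.10e-05), and both alleles rose, by 14.6 points on the D. melanogaster allele (adjusted p = 0.00639) and 17.7 on the D. sechellia allele (adjusted p = 0.00224). Its adjacent partner 2L 7230013 stood at 3.09% in F1 and 4.15% in Adar F1 (adjusted p = 0.477). At 3L 7173538 the level was 24.3%, 24.6% and 26.1% against 50.3%, 42.6% and 38.9% (18.9 points, SE 3.42, adjusted p = 8.63e-05), with a D. melanogaster share of 81.1% in F1 and 80.9% in Adar F1. The Adar F1 libraries lay above the F1 libraries at both of these sites, which the rule for naming required. The rises at 2R 8646087 (6.96 points, adjusted p = 0.0334) and 3R 6594237 (5.34 points, adjusted p = 0.0262) were smaller. The calls at X 9468688, 2R 8646087 and 3R 6594237 were each lost on leaving out single libraries, with adjusted p-values up to 0.144 (without Adar F1 replicate 3), 0.201 (without F1 replicate 2) and 0.201 (without Adar F1 replicate 1). At 3R 6594237 the rise without Adar F1 replicate 1 was 2.15 points.

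Allele shares moved by more than 30 points at 18 of the 123 tested isolated sites, 4 of which rose and 2 of which fell. With these left out, 34 of 105 changed, 4 of them upward. The matching counts over all sites are not given here, so neither count is a trait of isolated sites. On D. melanogaster reads alone 28 of 98 isolated sites changed, 4 of them upward, against a background of 25.4%. On D. sechellia reads alone 10 of 68 changed, 1 of them upward, against a background of 16.1%, and 56 of the 68 (82.4%) were lower in Adar F1, compared with 67.6% of all sites, with no test run on this share.

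In pairs, 28 were tested at both sites: both changed in 5, always in one direction, 1 site changed in 6 and neither in 17. The sites 2L 8177946 and 2L 8177947 rose together by 14.3 and 17.1 points. The other 4 pairs fell together, with -12.4 and -13.6 points at X 19467742 and X 19467749, -5.78 and -11.03 at 2R 20399839 and 2R 20399841, -6.88 and -3.22 at X 9172609 and X 9172610, and -8.34 and -2.27 at 3L 16708947 and 3L 16708959. Partners that share an amplicon also share its reads, so the sites of a pair are not independent.

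Falls were also called at 3 named sites that reached 95% G in D. melanogaster. At 3L 11218632 the total fell by 85.1 points (adjusted p = 3.17e-11) while the share of D. melanogaster reads moved from 91.4% to 0.873%, and at 2R 9436570 it fell by 32.9 points (adjusted p = 1.70e-05) while that share moved from 40% to 6.14%. At 2R 6708460 it fell by 64.7 points (adjusted p = 7.84e-16) with a share of 68.6% in F1 and 79.0% in Adar F1. The D. melanogaster allele there read 96.6%, 96.0% and 94.0% in F1 and 0.652%, 0.627% and 1.60% in Adar F1, while the D. sechellia allele read 0 in all F1 libraries, which allows up to 1.20%, and 0, 1.21% and 0 in Adar F1. A change of the allelic gap between F1 and Adar F1 was called at 1 of 58 isolated sites, against a background of 2.22% of 316 sites, and this was 2R 6708460, with a change of 94.98 points (adjusted p = 0.0263). That call was lost without F1 replicate 1, 2 or 3 or Adar F1 replicate 2 (adjusted p = 0.0657, 0.0659, 0.0791 and 1), whereas the change itself stayed between 94.4 and 95.7 points.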

How the data were processed

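Editing was measured by mmPCR-seq in 12 libraries, grouped by their titles. Each library has 1 table deposited by the authors that holds, per its header, unnormalized whole-number counts of A and G reads per site for each species' sequence, and an editing percent per species. The deposited percent was the rounded share of G reads, listed as 0 without reads, and was not used. Reads were aligned with BWA and positions are dm3, per the submitters' processing notes. Not given in the sources used here are the BWA version, how reads were assigned to species and how sites were chosen.

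Parent levels used reads of the own species, the other libraries both alleles. A site needed 50 reads in every library or allele compared and a mean level of 1%. G and A reads were fitted per site by quasi-binomial logistic regression in R 4.3.3. Pearson dispersions, raised to at least 0.01, were squeezed robustly on a coverage trend (limma 3.58.1, squeezeVar), set to at least 1, and used in a deviance F test. Benjamini-Hochberg adjustment covered all sites tested (threshold 0.05). The engine was tested on simulated counts. Library comparisons took dispersions from all 5 groups, but the Adar F1 tests on single alleles took them from F1 and Adar F1 alone. Allele comparisons had the library as a block, except where F1 gaps were set against those of the parents.

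Members and lists were chosen with earlier results of these data known. Named sites are up to 7 rises and 7 falls per comparison, past the threshold with groups that do not overlap and under 95% G in both parents, at most 3 per direction at 95% G, the 6 highest and the lowest levels, and every site with a called change of gap. Others were named after their values were seen. Gene lists and sequence context were not used, since no dm3 genome was used here. No replicate libraries were identical, and their coverage differed beyond sampling noise (chi-square per degree of freedom 1.96 to 10.3). Alternatives were 20 or 100 reads, no level minimum or 5%, limma on arcsine levels, Fisher's exact test, only the compared groups, a replicate block, the mixed parents, single alleles, join distances of 500 and 2000 bases, leaving out replicates, and leaving out sites at 95% G or with moved allele shares. Leaving out sites with misassigned parent reads and dispersions without a lower bound were chosen after seeing the data.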

Additional observations from a re-analysis of the deposited data

Results flagged for a closer look

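At 5 isolated sites the difference between alleles itself differed between groups, by the quasi-binomial test of that difference. Between F1 and the separate parents the gap changed by -13.5 points at X 4253674, by -9.64 points at 2L 17371335, by -18.6 points at 3L 20516600 and by -16.4 points at 3R 15589356. Between Adar F1 and F1 it changed by 94.98 points at 2R 6708460. At all of them but X 4253674 the call was lost on leaving out single libraries, with the same direction kept. With the mixed parents as the reference, 3 of the first 4 had enough reads and 0 were called, with changes of 2.99 points at X 4253674, -20.2 at 3L 20516600 and -7.0 at 3R 15589356. At 3L 20516600 no Adar F1 library had reads.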

How the results depend on the processing

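Of 846 values of named sites under alternatives, 797 kept direction and call, 48 kept only the direction, and 1 turned, at X 4253674 (2.99 points with the mixed parents). The replicate block gave 64 isolated sites between species and 40 for Adar F1, against 63 and 40, and changed no call of a named site; same-numbered libraries correlated by -0.0411 in the parents and by 0.123, 0.109 and 0.0204 in F1 and Adar F1, and not every library correlated best with its own number. The mixed-parent alleles in place of the species gave 29 calls among 101 tested isolated sites, against 63 of 152. D. sechellia reads alone gave 10 of 68 for Adar F1, against 40 of 123. At 100 reads fewer sites were tested. The counts were 10 of 34 for the F1 gap (27 of 91 at 50 reads) and 13 of 37 for the mixed parents (29 of 101). For the change of gap they were 2 of 32 in F1 (4 of 86) and 2 of 19 in Adar F1 (1 of 58). The mixed-parent count was 8 with dispersions without a lower bound. The change of gap in F1 was called at 2 sites with limma, 2 without sites at 95% G and 0 with the mixed parents. That in Adar F1 was called at 3 sites at 20 reads, at 2 with a 5% level minimum, and at 0 without a level minimum, without sites at 95% G or without the lower bound. Leaving out single replicates gave 51 to 58 calls between species, 23 to 29 for the F1 gap, 17 to 22 for the mixed parents, 32 to 53 for Adar F1, 1 to 7 for the change of gap in F1 and 0 to 2 in Adar F1. The D. melanogaster median was 9.81% at 20 and at 100 reads, 9.93% and 9.17% at join distances of 500 and 2000 bases and 12.8% for single sites, with 9.60 to 9.71% by replicate. The D. sechellia median was 5.19% at 20 reads, 6.57% at 100 and 9.15% for single sites, with 5.04 to 6.06% by replicate. Single sites had 10.05% in the mixed parents, 11.4% in F1 and 8.16% in Adar F1, and replicate ranges were 7.83 to 8.77%, 8.44 to 9.45% and 6.25 to 7.28%. At 50 reads per allele, 127 of 247 isolated sites were covered in F1 and 81 in both F1 and Adar F1.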

Other observations

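Values at X 4253674 in the Adar F1 libraries, chosen after they were seen, differed within the group. The level was 51.5% in Adar F1 replicate 1, and 98.4% in replicates 2 and 3. The D. melanogaster allele read 10.4% of 230 reads in replicate 1, 100% of 99 reads in replicate 2 and 97.1% of 104 reads in replicate 3, while the D. sechellia allele read 85.3%, 98.0% and 98.8%. In F1 the D. melanogaster allele lay between 5.13% and 11.4%. The comparison of Adar F1 with F1 at this site gave 27.2 points and did not pass the threshold (quasi-binomial test, adjusted p = 0.337). The cause of the split between the Adar F1 libraries was not tested.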
